A study of Rattus norvegicus with 9 samples.

Results

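The fatty acid oxidation enzymes described here are 9 rat genes of the carnitine shuttle and of mitochondrial beta-oxidation: Cpt1a, Cpt2, Slc25a20, Acadl, Acadm, Acadvl, Hadha, Hadhb and Acaa2. They were taken by symbol from the array's gene annotation, which names 14217 genes and lists 13 of the 31099 probe sets of the deposited table with 1 of these genes. Of the 13, 10 reached the level needed for testing, at least 1 for each of the 9 genes, and 3 lay below it. RNA was measured on 9 rat expression arrays of hippocampal neurons as the labels name them: 3 control arrays with artificial cerebrospinal fluid only, 3 arrays after ketone bodies for 1 h and 3 after ketone bodies for 6 h. The labels give no time for the control, no dose, no name of the ketone bodies, and no strain or age. They do not say whether the replicates were separate animals or cultures, so each p measures only the spread between these arrays. In such bulk RNA, fewer cells of a type and less RNA per cell cannot be told apart.

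Long-chain fatty acids enter mitochondria as carnitine esters. Cpt1a makes the ester at the outer membrane, the carrier Slc25a20 exchanges it across the inner membrane, and Cpt2 turns it back into acyl-CoA. The acyl-CoA dehydrogenases Acadvl, Acadl and Acadm, for very long, long and medium chains, then start each round of beta-oxidation. Hadha and Hadhb are the subunits of the mitochondrial trifunctional protein, which carries out the later steps on long chains, and Acaa2 is a thiolase that releases acetyl-CoA. Liver makes ketone bodies from that acetyl-CoA, and the brain burns them. In brain, fatty acid oxidation is best known from astrocytes.

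Promoter sequences from RefSeq (build GRCr8) were found for 7 of the 9 genes, all but Acadl and Acaa2. Those below are shown because Cpt2 and Slc25a20 were the members with the smallest p at 1 h, and because Hadha and Hadhb stand head to head, with starts 301 bases apart, and share 1 stretch upstream of both these starts. Capitals mark the GC box GGGCGG on either strand. The Cpt2 stretch is chr5:127910819-127911068, minus strand, where RefSeq's gene model also reaches further upstream. That of Slc25a20 is chr8:118243323-118243572, plus strand, and the shared one is chr6:31907551-31907750, written on the plus strand of Hadha; RefSeq's gene model of Hadhb also reaches further upstream than the start used here.
Cpt2: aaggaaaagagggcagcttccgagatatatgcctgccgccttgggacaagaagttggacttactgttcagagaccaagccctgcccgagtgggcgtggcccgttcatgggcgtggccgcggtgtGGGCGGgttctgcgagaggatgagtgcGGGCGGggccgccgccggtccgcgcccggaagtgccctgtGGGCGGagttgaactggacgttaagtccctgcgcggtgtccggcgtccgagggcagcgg
Slc25a20: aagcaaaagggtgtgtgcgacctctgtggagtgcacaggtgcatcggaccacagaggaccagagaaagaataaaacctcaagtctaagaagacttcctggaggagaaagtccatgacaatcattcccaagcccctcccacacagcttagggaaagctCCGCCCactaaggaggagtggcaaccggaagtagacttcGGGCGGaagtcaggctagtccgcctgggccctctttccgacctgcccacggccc
Hadha and Hadhb: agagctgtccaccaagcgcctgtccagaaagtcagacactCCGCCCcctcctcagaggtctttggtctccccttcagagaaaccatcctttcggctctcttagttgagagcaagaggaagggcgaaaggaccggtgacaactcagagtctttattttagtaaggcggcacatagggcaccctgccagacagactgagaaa

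Over windows of 300 bases, 250 before and 50 after the start, the GC box was found on either strand in 5 of the 7 member promoters (Acadm, Cpt2, Hadha, Hadhb and Slc25a20) and in 33.1% of all 33469 promoters. The half-site AGGTCA, which many nuclear receptors read, was found in 2 of the 7 (Acadvl and Hadhb) and in 16.2% of all promoters. The PPAR direct repeat, a pair of these half-sites with 1 base between them, was found in 0 of the 7 and in 0.0538% of all promoters, and the estrogen-related receptor element TCAAGGTCA, which also contains it, in 0 of the 7 and 0.433%. These are matches of letters in 1 window per gene. The GC box of Hadha is the same bases as 1 of those of Hadhb, so it is counted for both. The 250 bases upstream held from 45.6% (Cpt1a) to 66.8% (Cpt2) G and C in the 7. The median over the 300-base windows of all promoters was 51.2%.

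Values are log2(signal + 16) after quantile normalization, and signals are the deposited linear intensities. A fold taken from this scale understates the change of dim probe sets. Each array had a trimmed mean signal of about 150.05, and the array medians ran from 5.67 to 5.88 on the log2 scale before normalization. On the first principal component, with 45.0% of the variance, replicate 1 at 6 h and replicate 3 at 1 h lay farthest out. Markers above the filter included all 6 excitatory neuron markers and all 7 general neuron markers on the array, beside all 9 astrocyte, 6 of 7 oligodendrocyte, 8 of 9 microglia and macrophage, and all 7 vascular markers, so the RNA also held transcripts of glia and vessels.

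No fatty acid oxidation gene passed the test at 1 h or at 6 h. The largest difference was that of Cpt2 at 1 h, with a log2 change of 0.47 ± 0.14 (SE, 3 arrays per group throughout; 1.39-fold, 95% interval 1.12 to 1.71; adjusted p = 0.335 by limma). The share of all 18625 tested probe sets with an adjusted p under 0.05 was 0.0322% at 1 h against control, 0.0268% at 6 h against control and 0.0% at 6 h against 1 h, where the lowest adjusted p of any probe set was 0.688. Without adjustment, 2 of the 10 member probe sets had p under 0.05 at 1 h, Cpt2 and Slc25a20, beside 11.3% of all tested. At 6 h against control 0 of the 10 did, beside 4.26%, and at 6 h against 1 h again 0, beside 2.73%. The count at 1 h was 1 without control 2, control 3, any of the 1 h arrays, or replicates 2 or 3 at 6 h, and 3 without control 1. Cpt2 was among them in all 9 of these fits and Slc25a20 in 2. At 6 h against control the count was 1 without control 3 (Cpt2) and 1 without replicate 3 at 6 h (the dimmer Cpt1a probe set).

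**Figure D1:**
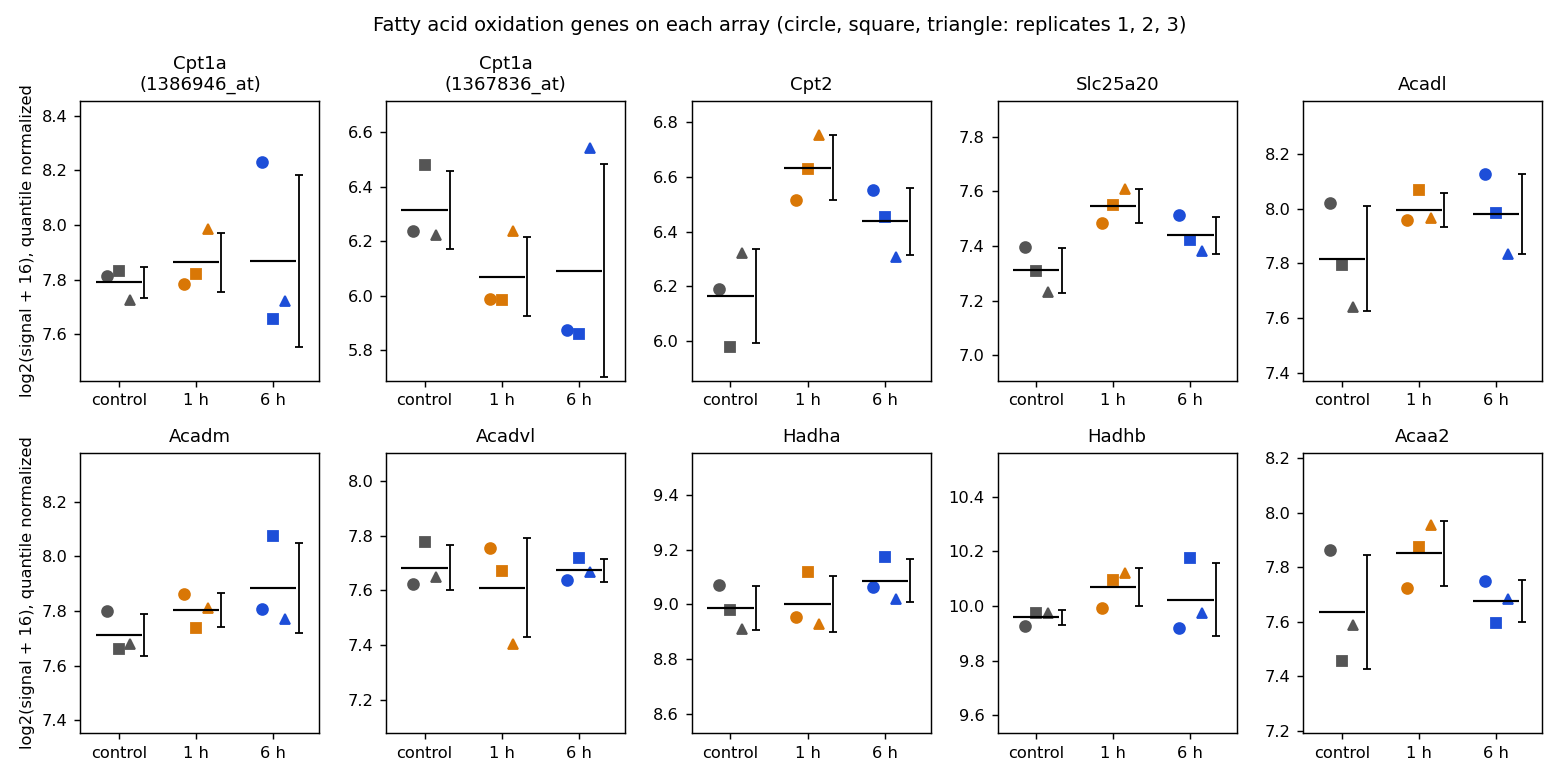
Normalized log2(signal + 16) of the 10 tested probe sets on each of the 9 arrays, with the mean (line) and SD (bar) of each group and the same height of scale in every panel. Cpt2, Slc25a20 and Hadhb have all 3 of their 1 h arrays above all 3 control arrays.

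At the carnitine shuttle, Cpt2 had signals of 58.6, 50.1 and 68.2 on the control arrays, 75.01, 80.4 and 87.9 at 1 h, and 73.3, 71.0 and 66.9 at 6 h. All 1 h arrays lay above all control arrays, while the 6 h arrays overlapped the control range. The log2 change at 6 h was 0.27 ± 0.14 (adjusted p = 0.987 by limma), and 6 h against 1 h gave -0.20 ± 0.14 (adjusted p = 0.997 by limma). Without control 2 the 6 h value was 0.18. Across the alternative fits, Cpt2 at 1 h had log2 changes between 0.30 and 0.57, set by the pseudocounts of 64 and 1, and its adjusted p was lowest with array weights, at 0.154.

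Slc25a20, the inner-membrane carrier, had 155, 147 and 138 in control, 161, 169 and 176 at 1 h, and 165, 153 and 154 at 6 h. Here too the 1 h arrays lay wholly above the controls, and the 6 h arrays overlapped them. The change at 1 h was 0.24 ± 0.10 (adjusted p = 0.437 by limma), against 0.13 ± 0.10 at 6 h (adjusted p = 0.987 by limma). Over the 9 arrays Slc25a20 and Cpt2 had the highest correlation of any member pair, with a Pearson r of 0.83, a description over arrays that share their groups.

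Cpt1a, the step that malonyl-CoA inhibits, was read by a pair of probe sets whose values went different ways. The brighter, 1386946_at, had 210, 215 and 198 in control, 205, 210 and 234 at 1 h, and 290, 183 and 198 at 6 h. The dimmer, 1367836_at, had 61.2, 76.6 and 63.0 in control, 46.8, 45.2 and 55.7 at 1 h, and 38.2, 42.0 and 80.9 at 6 h. In these deposited signals, replicate 1 at 6 h held the highest value of the first and the lowest of the second. After normalization the second was at 5.87 there and at 5.86 on replicate 2. Over the 9 arrays the normalized values of the pair correlated with a Pearson r of -0.26.

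The brighter probe set gave 0.073 ± 0.152 at 1 h and 0.079 ± 0.152 at 6 h, and the dimmer -0.24 ± 0.19 (adjusted p = 0.625 by limma) and -0.22 ± 0.19 (adjusted p = 0.987 by limma). Single arrays moved both. Without replicate 1 at 6 h the brighter gave -0.10 at 6 h, and without replicate 3 at 1 h it gave 0.012 at 1 h. The dimmer at 6 h ran from -0.10 without replicate 2 at 6 h to -0.45 without replicate 3 (adjusted p = 0.465 by limma), and at 1 h from -0.16 without control 2 to -0.33 without replicate 3 at 1 h. With the RNA quality covariate described below, the brighter gave -0.057 at 1 h and -0.047 at 6 h, and the dimmer -0.073 and -0.055. In the deposited signals all 1 h arrays of the dimmer probe set lay below its controls, but after normalization the groups overlapped.

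None of the 3 dehydrogenases passed the test in any comparison. Acadl, for long chains, had 246, 209 and 185 in control, 232, 252 and 230 at 1 h, and 268, 234 and 213 at 6 h (0.18 ± 0.13 at 1 h and 0.16 ± 0.13 at 6 h). Control 1 lay within the range of the ketone arrays, and without it the values were 0.28 and 0.27, whereas without control 3, its dimmest array, they were 0.091 and 0.076. Without replicate 1 at 6 h the 6 h value was 0.093. Acadm, the medium-chain enzyme, had 208, 189 and 191 in control, 216, 196 and 205 at 1 h, and 209, 251 and 204 at 6 h. Its changes were 0.091 ± 0.114 and 0.17 ± 0.11, and without replicate 2 at 6 h, its brightest array, the latter was 0.076. Acadvl, for very long chains, had 183, 206 and 186 in control, 200, 187 and 150 at 1 h, and 184, 191 and 189 at 6 h. Its changes, -0.072 ± 0.118 and -0.0088 ± 0.1184, were the only negative ones besides those of the dimmer Cpt1a probe set. With array median centring they were 0.0037 and 0.050, and without replicate 3 at 1 h, its dimmest array, the former was 0.031. The adjusted p of these enzymes ran from 0.587 (Acadl) to 0.825 (Acadvl) at 1 h by limma.

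Of the trifunctional protein, the beta subunit Hadhb had 951, 961 and 970 in control, 1012, 1098 and 1110 at 1 h, and 981, 1160 and 981 at 6 h. The control arrays were close together, and all 1 h arrays lay above them, with a log2 change of 0.11 ± 0.09 at 1 h (adjusted p = 0.611 by limma) and 0.065 ± 0.085 at 6 h. Without replicate 2 at 6 h, its brightest array, the 6 h value was -0.011, and without replicate 1 it was 0.12. At 6 h the deposited signals also lay wholly above control, whereas after normalization they overlapped. Centring the arrays on their medians in place of quantile normalization gave 0.26 at 1 h for Hadhb and moved the median of all tested probe sets from 0.029 to 0.096. The alpha subunit Hadha lies in the other direction from the stretch printed above. It had 521, 488 and 461 in control, 480, 545 and 475 at 1 h, and 528, 560 and 498 at 6 h. Its groups overlapped in each comparison (0.013 ± 0.095 and 0.099 ± 0.095), and without replicate 2 at 1 h its value at 1 h was -0.046. Without replicate 2 at 6 h its value at 6 h was 0.055, and without control 3 the values were -0.026 and 0.060. Over the 9 arrays Hadha and Hadhb correlated with a Pearson r of 0.33, below 18 of the 36 member pairs.

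Acaa2, the thiolase, had 220, 164 and 179 in control, 195, 218 and 228 at 1 h, and 199, 175 and 192 at 6 h, with control 1 inside the 1 h range. The log2 changes were 0.22 ± 0.13 at 1 h (adjusted p = 0.533 by limma) and 0.039 ± 0.129 at 6 h. Without control 1 they were 0.33 and 0.15, and without control 2, its dimmest array, 0.13 and -0.051. Without replicate 1 at 6 h the 6 h value was 0.0028, and without replicate 2 it was 0.079. A further Acaa2 probe set, 1380504_at, and a pair of further Hadha probe sets lay below the filter, with signals between 1.85 and 23.4 on all arrays, and were not among the probe sets tested.

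**Figure D2:**
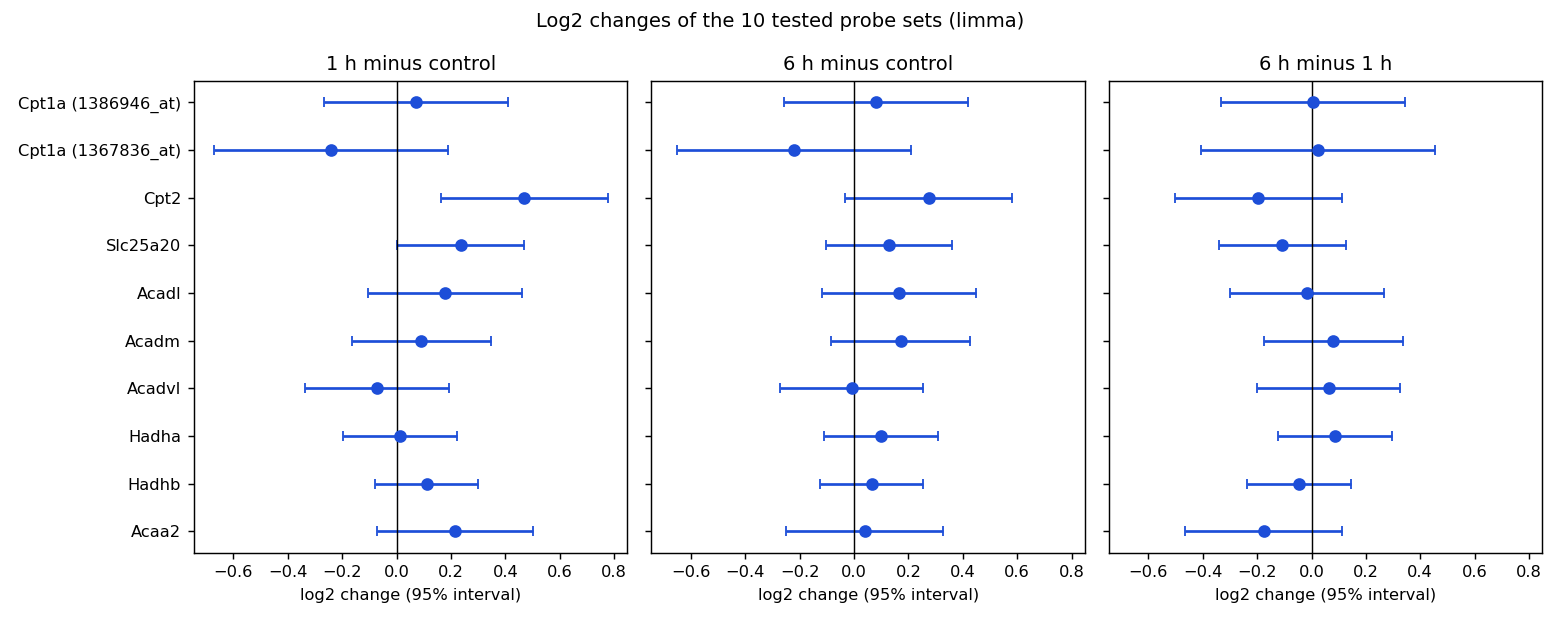
Log2 changes with 95% intervals from limma for the 10 tested probe sets in the 3 comparisons. The intervals of Cpt2 and Slc25a20 at 1 h lie above 0, and the other 28 hold 0.

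The intervals limit what these arrays leave possible. At 6 h against control all 10 held no change, and together they spanned 0.637-fold (dimmer Cpt1a probe set) to 1.496-fold (Cpt2). At 1 h they spanned 0.627-fold to 1.71-fold for the same probe sets, and 8 of the 10 held no change.

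As a group, 8 of the 10 member probe sets had a positive log2 change at 1 h, beside 55.3% of all tested, and 8 of the 10 at 6 h, beside 53.8%. Both comparisons use the same 3 controls. Their median was 0.10 at 1 h, beside 0.029 over all tested probe sets, and 0.089 at 6 h, beside 0.015. For 6 h against 1 h, 5 of the 10 were positive, beside 47.0%, with a median of -0.0042 beside -0.011. Without control 1 the 6 h median was 0.15 and without replicate 3 at 6 h it was 0.14, and without the latter array that of 6 h against 1 h was 0.019. At 1 h, 3 of the 10 had all treated arrays above all controls (Cpt2, Slc25a20 and Hadhb), beside 13.0% of all tested, and 0 had them all below, beside 8.25%. At 6 h the counts were 0 above, beside 6.05%, and 0 below, beside 3.12%.

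Averaged over the 9 genes, each centred on its own mean, the controls stood at -0.014, -0.12 and -0.12, the 1 h arrays at 0.021, 0.081 and 0.077, and the 6 h arrays at 0.085, 0.046 and -0.053. Replicate 3 at 6 h thus lay below control 1, with 1 of the 9 genes above its own mean. The same array was lowest in a measure of RNA quality, the beta-actin signal at the transcript's 3' end over that at its 5' end, where a higher value stands for more degraded RNA or shorter copies. As a log2 ratio it was 1.37, 1.27 and 1.42 in control, 1.39, 2.16 and 2.02 at 1 h, and 2.58, 1.92 and 1.03 at 6 h. By exact 2-sided permutation the groups gave p = 0.2 at 1 h and p = 0.4 at 6 h, where 3 against 3 cannot go below 0.1, and for Gapdh p = 0.8 both times. With the ratio as a covariate, the members' median was 0.093 at 1 h and 0.064 at 6 h, Cpt2 at 1 h had 0.38 (adjusted p = 0.654 by limma), and 6 of the 10 were positive at 1 h.

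**Figure D3:**
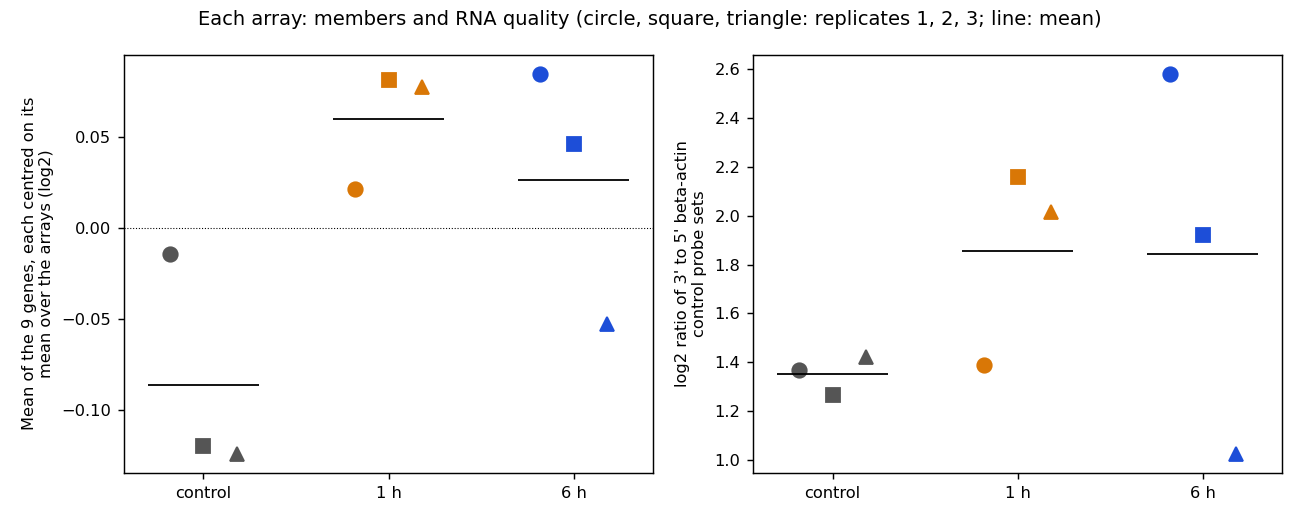
Left, the mean of the 9 genes on each array (1 probe set per gene, centred, log2). Right, the beta-actin 3'/5' log2 ratio of the same arrays. In both panels replicate 1 at 6 h is the highest 6 h array and replicate 3 the lowest.

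Cell type markers are given beside these values. The summed signal of the 9 astrocyte markers was 20159 to 21183 in control, 21051 to 23540 at 1 h and 21024 to 22143 at 6 h, with a median log2 change of 0.016 and 0.047. That of the 6 excitatory neuron markers was 9652 to 10648, 8637 to 10434 and 8813 to 9677, with all 6 changes negative in both comparisons (medians -0.30 and -0.22). Both comparisons use the same 3 controls. Of all tested probe sets, 55.3% had a positive change at 1 h and 53.8% at 6 h. The 7 inhibitory neuron markers summed to 5657 to 5992 in control, 6562 to 7051 at 1 h and 6285 to 6606 at 6 h, so the ketone arrays lay wholly above control. Of these 7, 5 had a positive change at 1 h and 6 at 6 h (medians 0.19 and 0.066). The 7 vascular markers summed to 768 to 812, 789 to 851 and 834 to 898, apart from control at 6 h (median changes 0.0072 and 0.15). The sums of the microglia and macrophage, oligodendrocyte, general neuron and choroid plexus lists overlapped between control and both ketone groups. Of the 7 general neuron markers, 1 had a positive change at 1 h and 1 at 6 h (medians -0.11 and -0.11). Of 6 tested oligodendrocyte markers the counts were also 1 and 1 (medians -0.11 and -0.027). Of 8 tested microglia and macrophage markers, 5 were positive each time (medians 0.21 and 0.028). The choroid plexus and ependyma list had 3 of 5 markers above the filter. No marker of these lists passed the test, and the markers' part in the members' values was not tested.

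Members did not all vary together. Over the 9 arrays the 36 member pairs had a median Pearson r of 0.33, from -0.73 (Acadvl and Acaa2) to 0.83, beside a median of 0.055 over all pairs of 10707 genes. Slc25a20 also correlated with Acadl (0.81) and Acaa2 (0.78), and Acadvl had negative values with 6 of the 8 other genes. The genes most like the mean of the 9 over these arrays were Armc10 (Pearson r 0.97), the kinase Mapkapk5 (0.97), the calcium pump Atp2a3 (0.97), the lipid phosphatase Inpp5d (0.96) and Vps4b (0.96), taken as the top 5 of all other single-gene probe sets. Their 1 h log2 changes ran from 0.26 (Armc10) to 0.81 (Atp2a3), with adjusted p from 0.374 to 0.436 by limma. These genes were picked on the same 9 arrays, so the sign of their changes follows from the choice and is no separate result.

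The rest of the pathway was read from 86 tested probe sets of 68 genes in 5 lists, and none passed in any comparison. Without adjustment 18 had p under 0.05 at 1 h (20.9% of the 86), 6 at 6 h (6.98%) and 3 at 6 h against 1 h (3.49%), against the shares of all tested given above. Of all tested probe sets, 55.3% had a positive log2 change at 1 h and 53.8% at 6 h, with medians of 0.029 and 0.015. The counts and medians of the lists stand beside these. In the list of other mitochondrial beta-oxidation genes, 22 of 26 probe sets were positive at 1 h (median 0.14). At 6 h 20 of them were (median 0.070). This list also held genes of propionyl-CoA breakdown (Pcca, Pccb, Mcee and Mmut). Its Acad8 and Acadsb are dehydrogenases of branched-chain amino acid breakdown. Echs1, the short-chain hydratase, had signals of 274, 284 and 230 in control, 325, 334 and 362 at 1 h, and 286, 343 and 308 at 6 h. Each array of the 1 h and 6 h groups was above each control (0.37 ± 0.12 at 1 h, adjusted p = 0.36 by limma) on the deposited scale, but after normalization the 6 h arrays overlapped the controls. Hsd17b10, a mitochondrial hydroxyacyl-CoA dehydrogenase, had 0.40 ± 0.13 at 1 h (adjusted p = 0.373 by limma). At 6 h the smallest p values were those of Acad11 (0.36 ± 0.17) and Echs1 (0.24 ± 0.12), and at 6 h against 1 h of Acad8 (-0.28 ± 0.15) and Etfb (-0.14 ± 0.09), an electron transfer flavoprotein subunit.

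**Figure D4:**
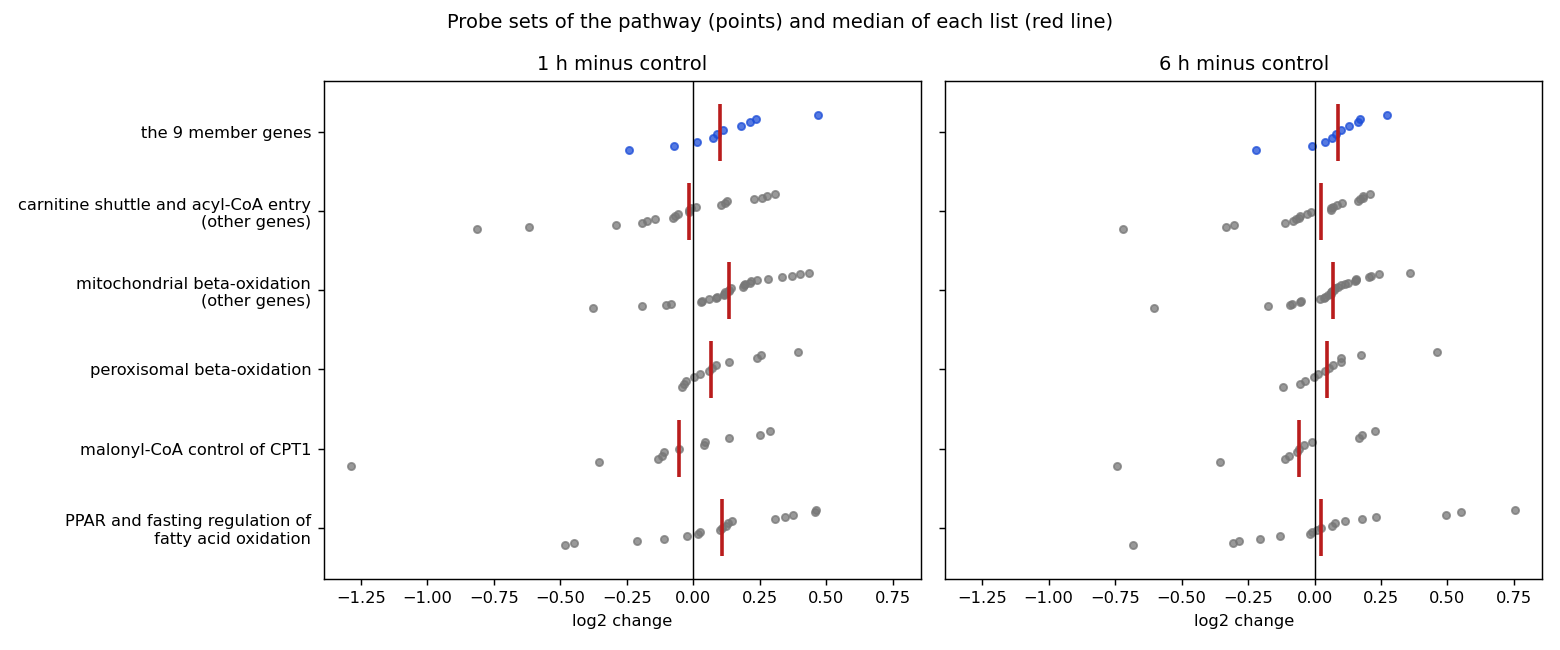
Log2 changes at 1 h and 6 h of the tested probe sets of the 9 member genes (blue) and of 5 lists of related genes (grey), with each list's median in red. The medians of the list of other mitochondrial beta-oxidation genes are 0.14 and 0.070, and those of the malonyl-CoA list -0.054 and -0.057.

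Among other genes of acyl-CoA entry, 8 of 20 probe sets were positive at 1 h (median -0.017) and 10 at 6 h (median 0.023). The smallest p values at 1 h were those of Acsbg1, an acyl-CoA synthetase (0.31 ± 0.11), and the synthetase Acsl6 (-0.81 ± 0.31), and at 6 h of Acsl6 (-0.72 ± 0.31) and Crot (-0.33 ± 0.19), the peroxisomal carnitine octanoyltransferase, whose other tested probe set gave 0.061 ± 0.122. Both Acsl6 values are those of its dimmer probe set, and the brighter gave -0.070 ± 0.148 at 1 h and -0.056 ± 0.148 at 6 h. At 6 h against 1 h, Acsl4 had 0.12 ± 0.09 and the carnitine transporter Slc22a5 0.20 ± 0.16.

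Peroxisomal beta-oxidation had 9 of 12 probe sets positive at 1 h (median 0.066) and 8 at 6 h (median 0.047). Scp2, whose products include a peroxisomal thiolase, had 0.25 ± 0.08 at 1 h (adjusted p = 0.346 by limma) and -0.20 ± 0.08 at 6 h against 1 h in 1 probe set, and 0.087 ± 0.080 and -0.12 ± 0.08 in the other. Pex5, the import receptor, had 0.40 ± 0.23 at 1 h in 1 probe set and 0.13 ± 0.21 in the other. The transporter Abcd3 had 0.46 ± 0.23 at 6 h and 0.50 ± 0.23 at 6 h against 1 h, and Amacr, a racemase, 0.10 ± 0.13 at 6 h.

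Genes that set malonyl-CoA, the inhibitor of Cpt1a, had 5 of 11 probe sets positive at 1 h and 3 at 6 h. Acaca, which makes malonyl-CoA, had -0.35 ± 0.17 at 1 h and -0.36 ± 0.17 at 6 h in 1 probe set, and -0.12 ± 0.15 and -0.11 ± 0.15 in the other. The AMP kinase subunits Prkag1 at 1 h (0.29 ± 0.13) and Prkab1 at 6 h (0.23 ± 0.14) also had the smallest p values. Of the other tested subunits, Prkaa2 had -1.29 ± 0.71 at 1 h and -0.74 ± 0.71 at 6 h. Its signals were 54.8, 113 and 127 in control, 27.9, 71.3 and 4.32 at 1 h, and 2.23, 108 and 96.4 at 6 h. Each ketone group thus held 1 very dim array, replicate 3 at 1 h and replicate 1 at 6 h. The other 6 h arrays, and replicate 2 at 1 h, lay within the control range. Prkaa1 had -0.11 ± 0.13 and -0.057 ± 0.126. Prkag2 had -0.13 ± 0.15 and -0.096 ± 0.146 in 1 probe set, and 0.039 ± 0.119 and -0.0097 ± 0.1192 in the other. Mlycd, which breaks malonyl-CoA down, had -0.20 ± 0.11 at 6 h against 1 h, and Prkag1 -0.11 ± 0.13.

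In the list of PPAR and fasting regulation, 12 of 17 probe sets were positive at 1 h (median 0.11) and 10 at 6 h (median 0.023). Pdk4, the kinase that restrains pyruvate oxidation, had signals of 40.4, 47.4 and 33.2 in control, 48.9, 62.6 and 56.2 at 1 h, and 69.8, 72.9 and 80.6 at 6 h. In this tested probe set the 3 groups were apart from each other. Its adjusted p by limma was 0.352 at 1 h and 0.236 at 6 h. Of all tested probe sets, 13.0% lay wholly above control at 1 h and 6.05% at 6 h. A further Pdk4 probe set, below the filter, had 16.6, 8.58 and 18.01 in control and 28.2, 13.3 and 28.7 at 1 h. At 6 h it had 10.7, 27.8 and 32.8, and both ketone groups overlapped its controls. The lipid droplet gene Plin2 had 0.35 ± 0.12 at 1 h and -0.28 ± 0.12 at 6 h against 1 h in 1 probe set, and 0.13 ± 0.28 and -0.12 ± 0.28 in the other. Angptl4, a lipase inhibitor, had 0.49 ± 0.12 at 6 h (adjusted p = 0.601 by limma). Klf15, a transcription factor of fasting metabolism, had -0.33 ± 0.12 at 6 h against 1 h in 1 probe set and -0.20 ± 0.18 in the other tested one, and at 6 h against control -0.31 ± 0.12 and -0.68 ± 0.18 (adjusted p = 0.734 by limma). Ppara was below the filter on average, with signals of 0.595 to 2.39. The coactivator Ppargc1a had -0.023 ± 0.124 and -0.21 ± 0.16 at 1 h in its tested probe sets, and 0.023 ± 0.124 and -0.13 ± 0.16 at 6 h.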

How the data were processed

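The authors deposited linear signal intensities for 31099 probe sets on 9 arrays (linear judged by their values). The software and background correction behind them is not given in the sources used here. Precision is limited by the number of arrays. Values were taken as log2(signal + 16) and quantile normalized. Leaving out 57 control probe sets, those with a mean over all arrays of at least the 40th percentile (log2 5.21; signal about 21.0) were tested, 18625 in all. One limma 3.58.1 fit (R 4.3.3) held 1 coefficient per group, with an intensity trend and Benjamini-Hochberg adjustment over all tested probe sets at 0.05, and was tested on simulated data. Symbols came from the platform annotation, checked by Entrez number against RefSeq (GRCr8). Every member probe set is described. From each list the 2 smallest p values per comparison are named, with Pdk4, Ppara and Ppargc1a, and the 5 genes most like the members. Other tested probe sets of those genes were added, with the other AMP kinase subunits and a Pdk4 probe set below the filter. One gene of that rule is not reported here. The members and lists were chosen with earlier results of these data known. Marker sums use 1 probe set per gene. Alternatives were the scaling, pseudocounts of 1 and 64, no filter or the 60th percentile, no trend, array weights, a replicate block, only the compared groups and leaving out each array. A 3'/5' covariate and leaving out the pair of arrays most extreme on principal component 1 were chosen after seeing the data.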

Additional observations from a re-analysis of the deposited data

Results flagged for a closer look

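The dim Acaa2 probe set 1380504_at had signals of 5.63, 7.35 and 9.16 in control, 11.97, 7.38 and 13.5 at 1 h, and 3.23, 1.85 and 3.44 at 6 h. It is listed because every normalized 1 h value lay above the control mean and every 6 h value below it, a difference of -0.52 on the log2 scale between 6 h and 1 h. It lay below the filter, so this difference was not tested among the 18625 probe sets. Without the filter it gave -0.52 ± 0.12 with adjusted p = 0.995 by limma. The brighter Acaa2 probe set 1386880_at gave -0.18 ± 0.13 for the same comparison.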

How the results depend on the processing

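Over 21 alternatives, 0 member probe sets and 0 probe sets of the related lists passed by limma in each comparison; the lowest adjusted p of a member was 0.154 at 1 h (array weights), 0.465 at 6 h and 0.636 at 6 h against 1 h. Array median centring raised the members' median to 0.21 at 1 h and 0.18 at 6 h (0.26 and 0.18 over 1 probe set per gene). At 1 h it also raised the median of all tested probe sets, from 0.029 to 0.096. With 1 array left out the median at 6 h ran from 0.067 to 0.15 (0.073 to 0.15 per gene), and that of 6 h against 1 h from -0.041 to 0.019 (-0.087 to 0.059 per gene). Leaving out the pair of arrays most extreme on principal component 1, the latter was -0.062 (-0.10 per gene). The labels share replicate numbers between groups. Of the 9 same-numbered pairs of arrays, 3 deviated together with a correlation over 0.1 (range -0.36 to 0.54). Differently numbered pairs had a similar range, from -0.43 to 0.53, so the numbers were not taken to pair the arrays. With the replicate block 0 member probe sets passed, and Cpt2 at 1 h had 0.47 with adjusted p = 0.372 by limma. Cpt2 and the dimmer Cpt1a probe set were not tested at the 60th percentile filter.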
